A study of Mus musculus with 6 samples.

Results

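Brown adipose tissue (BAT) burns fatty acids that it draws largely from triglyceride-rich lipoproteins in the blood, and the 10 genes described here encode the proteins of that supply line: lipoprotein lipase (Lpl), its partners and regulators Lmf1, Gpihbp1, Angptl4 and Vldlr, the fatty acid transporters Cd36, Slc27a1 and Slc27a2, and the fatty acid binding proteins Fabp3 and Fabp4. They were chosen by name for their roles. All 10 were listed among the 35976 rows of the count table, and all 10 were among the 14542 genes tested. The libraries were made from BAT of 3 sST2-KO mice and 3 WT littermates, all male, 10 weeks old and on a C57BL/6J background, with heterozygous parents. In sST2-KO mice an intron of Il1rl1 (between exon 8 and exon 9) was deleted by CRISPR/Cas9 in the whole animal, not in BAT alone, which was designed to remove the soluble ST2 receptor (sST2) and to keep the membrane form ST2L. Mice of both genotypes had their BAT surgically denervated, were kept at 30 °C for 7 days and were then exposed to 10 °C for 8 h, so no innervated and no warm-kept BAT was compared here. The comparison addressed how the loss of sST2 changes gene expression in cold-exposed BAT that has lost its nerve supply.

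LPL is made by adipocytes and muscle cells and folds in the endoplasmic reticulum with the help of LMF1. After secretion it is picked up by GPIHBP1 on capillary endothelial cells and carried to the vessel lumen, where it cleaves triglycerides in chylomicrons and very low density lipoproteins. ANGPTL4 inactivates LPL, and VLDLR binds lipoproteins at the capillary wall. The released fatty acids enter cells with the help of CD36 and of the SLC27 (FATP) proteins, which also couple fatty acids to coenzyme A, and FABP3 and FABP4 bind them in the cytosol. In BAT, cold exposure is known to raise LPL activity and the uptake of triglyceride-derived fatty acids.

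The libraries held between 8159442 and 12874809 counts. Levels are given as normalized CPM, which scales the counts to a common library size after edgeR's TMM factors, and 3 values in a row stand for replicates 1, 2 and 3. A gene passed when its p from the quasi-likelihood test in edgeR was under 0.05 after Benjamini-Hochberg adjustment over all genes tested. For Il1rl1, 19, 19 and 6 counts were read in WT and 55, 69 and 142 counts in sST2-KO mice, and both receptor forms add to these counts, which therefore give no check of the genotype. Ucp1, the defining gene of brown adipocytes, was read in every library, at 5210 to 10487 CPM in WT mice and at 153 to 1038 CPM in sST2-KO mice. WT replicate 2 stood apart in liver genes, whose summed level was 6270.5 CPM there and 69.8 to 450 CPM in the other libraries. Skeletal muscle genes summed to 1600, 156 and 99.8 CPM across the WT libraries and to 7776, 4269 and 18006 CPM across the sST2-KO libraries, and macrophage genes were highest in sST2-KO replicate 3.

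Lipoprotein lipase, its chaperone, 1 of the transporters and 1 of the binding proteins were lower in sST2-KO BAT, and none of the 10 genes passed as higher. Of the 10 genes, 4 fell (Lpl, Lmf1, Slc27a2 and Fabp3), each by more than 2-fold, and 0 rose. Without adjustment of p 9 were lower and still 0 were higher, against 2423 lower and 2846 higher of all 14542 genes tested. Among all genes tested by edgeR, 9.10% passed as lower, 7.10% as lower by more than 2-fold, and 10.5% as higher. In 9 of the 10 genes the sST2-KO values all lay below the WT values, a pattern seen in 19.7% of all genes tested, and Angptl4 was the exception. The reverse order was found in 0 of them and in 21.8% of all genes tested. Their median log2 fold change was -1.01, against 0.034 for all genes tested. Together they took up 2.18%, 1.86% and 2.07% of the counts across the WT libraries and 1.47%, 1.14% and 0.720% across the sST2-KO libraries. The sST2-KO replicate 3 had the lowest level of all 6 libraries for 8 of the 10 genes. This library also stood apart in its share of mitochondrial counts, 6.80% against 11.8% to 16.6% in the other 5, and the part of this in its low levels was not tested. In a tissue sample, fewer cells of a type and less RNA per cell cannot be told apart.

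**Figure D1:**
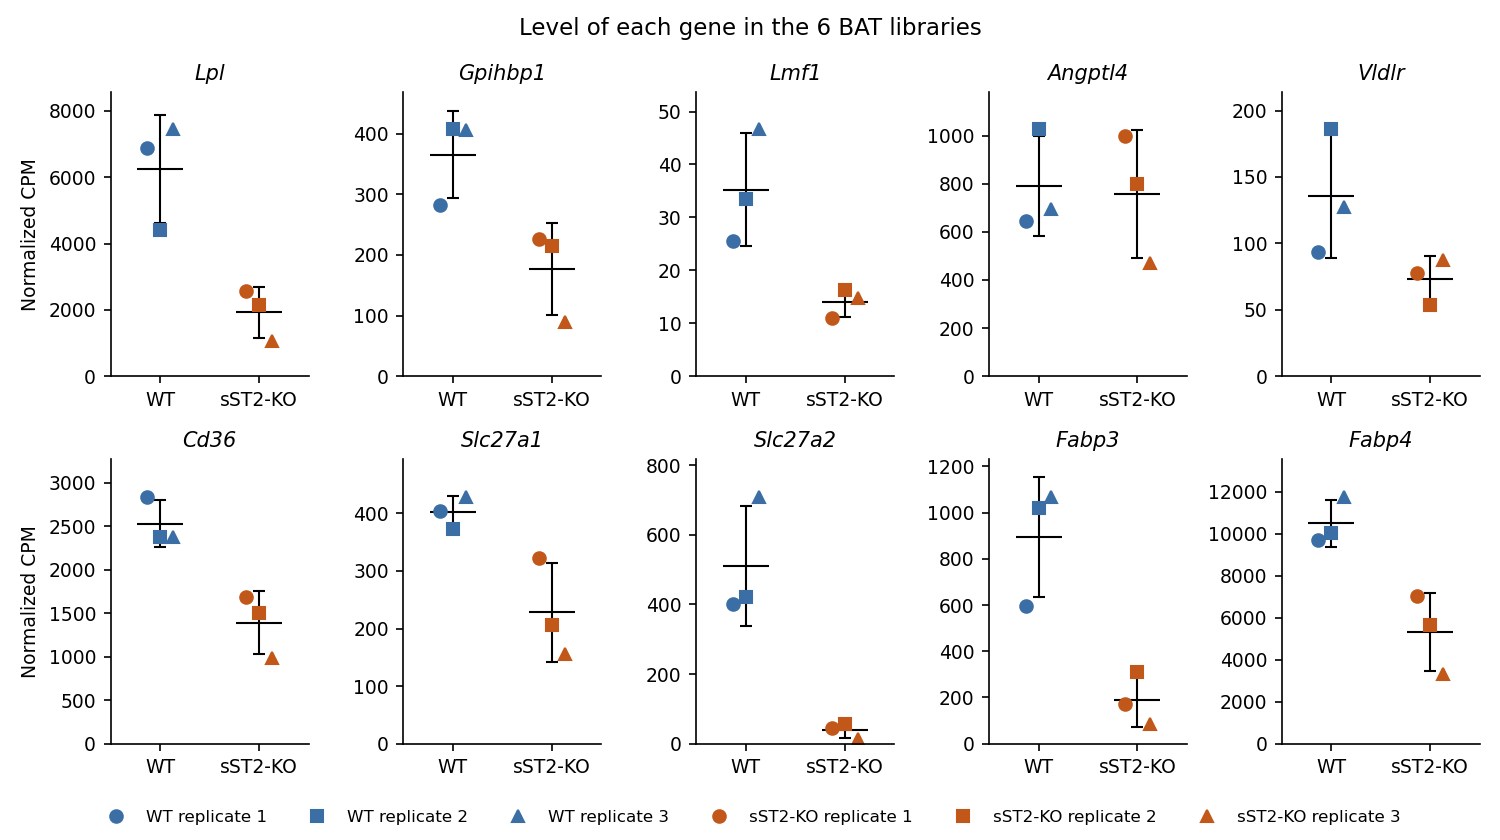
Normalized CPM of each of the 10 genes in the 3 WT libraries (blue) and the 3 sST2-KO libraries (orange), with the group mean (long bar) and SD (error bar) and a linear axis from 0 in each panel. The groups are separate in 9 panels, and in the Angptl4 panel the sST2-KO values of 471 to 999.7 CPM span most of the WT range.

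Lpl itself, on chr8:69284603-69360100 (GRCm39, plus strand), encodes the enzyme at the head of this supply line. Its level was 6886, 4402 and 7453 CPM across the WT libraries and 2579, 2134 and 1071 CPM across the sST2-KO libraries. Even the highest sST2-KO library lay well below the lowest WT library, WT replicate 2, and the mean fell from 6247 ± 1623 to 1928 ± 775 CPM (SD, n = 3 each). This was a 3.24-fold decrease (log2 fold change -1.70, standard error 0.43, adjusted p = 0.0348).

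Lmf1, the chaperone that LPL needs to fold (chr17:25798048-25888183, plus strand), was also lower. It had 25.6, 33.5 and 46.7 CPM across the WT libraries and 10.9, 16.2 and 14.8 CPM across the sST2-KO libraries. The sST2-KO libraries were close to one another and apart from WT, a 2.53-fold decrease (log2 fold change -1.34, standard error 0.28, adjusted p = 0.0203). Gpihbp1, which carries LPL across the capillary wall (chr15:75468474-75471331, plus strand), is expressed by endothelial cells and not by adipocytes. Its level was 282.3, 407.5 and 406.5 CPM across the WT libraries and 225.7, 215 and 89.1 CPM across the sST2-KO libraries. The groups did not overlap, but sST2-KO replicate 1 was close to WT replicate 1, and the log2 fold change of -1.05 (standard error 0.37, 95% interval -1.92 to -0.18) did not pass (adjusted p = 0.0856).

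Angptl4, the LPL inhibitor that adipocytes secrete (chr17:33992724-34000804, minus strand), was the only one of the 10 genes whose groups overlapped. It had 647, 1028 and 697 CPM across the WT libraries and 999.7, 801 and 471 CPM across the sST2-KO libraries. The highest value was in WT replicate 2 and the lowest in sST2-KO replicate 3, with the second highest in sST2-KO replicate 1. On the log2 scale the difference was -0.06 (adjusted p = 0.916), with a 95% interval from -0.87 to 0.74 that leaves room for a change of either sign. With scaling by library totals it was 0.20, a scaling that moved the median of all genes tested to 0.30, and with WT replicate 2 left out it was 0.17. Vldlr, the receptor for very low density lipoproteins (chr19:27193862-27231631, plus strand), had 93.1, 186 and 128 CPM across the WT libraries and 77.4, 53.9 and 87.5 CPM across the sST2-KO libraries. WT replicate 1 and sST2-KO replicate 3 were almost level, and the log2 fold change of -0.89 (standard error 0.30, 95% interval -1.60 to -0.19) did not pass (adjusted p = 0.0753).

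Of the 3 transporters, 1 passed. Slc27a2 (FATP2, chr2:126394327-126430166, plus strand), a very long chain acyl-CoA synthetase and fatty acid transporter best known from liver and kidney, had the largest fall of the 10 genes. It was read at 400.3, 419.9 and 709 CPM across the WT libraries and at 43.8, 56.9 and 14.3 CPM across the sST2-KO libraries. The mean went from 510 ± 173 to 38.3 ± 21.8 CPM (SD, n = 3 each), a 13.3-fold decrease (log2 fold change -3.73, standard error 0.54, adjusted p = 0.0136). This was the 42nd lowest log2 fold change of the 14542 genes tested. In WT replicate 2, the library with the liver genes, Slc27a2 lay between the other WT libraries, and it had a log2 fold change of -3.86 with that library left out. The part of liver transcripts in the level of Slc27a2 was not tested. Slc27a1 (FATP1, chr8:72021095-72041866, plus strand), the main FATP of adipocytes and muscle, had 404, 373 and 429 CPM across the WT libraries and 323, 206 and 155 CPM across the sST2-KO libraries. The WT values were tightly grouped and the sST2-KO values were not, and the log2 fold change of -0.82 (standard error 0.30) did not pass (adjusted p = 0.0891). Cd36, the scavenger receptor that takes up long chain fatty acids (chr5:17986432-18094067, minus strand), had 2843, 2379 and 2374 CPM across the WT libraries and 1687, 1499.5 and 991 CPM across the sST2-KO libraries. Its log2 fold change was -0.86 (standard error 0.30, 95% interval -1.57 to -0.15, adjusted p = 0.0844), so the gap between the groups was visible in each library but did not pass.

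Of the 2 binding proteins, 1 passed. Fabp3, the heart-type binding protein that brown fat shares with muscle (chr4:130202388-130209259, plus strand), had 598, 1021.5 and 1069.5 CPM across the WT libraries and 171, 309.6 and 83.9 CPM across the sST2-KO libraries. The groups were far apart, with a 4.77-fold decrease (log2 fold change -2.25, standard error 0.50, adjusted p = 0.0238). Fabp4, the binding protein of adipocytes and macrophages (chr3:10268785-10273737, minus strand), had 9682, 10036 and 11768 CPM across the WT libraries and 7014, 5658 and 3337 CPM across the sST2-KO libraries. The sST2-KO values were spread 2.10-fold, and the log2 fold change of -0.98 (standard error 0.40, 95% interval -1.90 to -0.05) did not pass (adjusted p = 0.122). The ratio of Fabp3 to Fabp4 within a library was lower in sST2-KO than in WT mice, without overlap. The mean log2 ratio was -3.59 ± 0.38 in WT mice and -4.95 ± 0.66 in sST2-KO mice (SD, n = 3 each). By an exact two-sided permutation test p was 0.1, the smallest that 3 against 3 libraries can give, and 0.15 after adjustment over the 12 ratios compared.

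**Figure D2:**
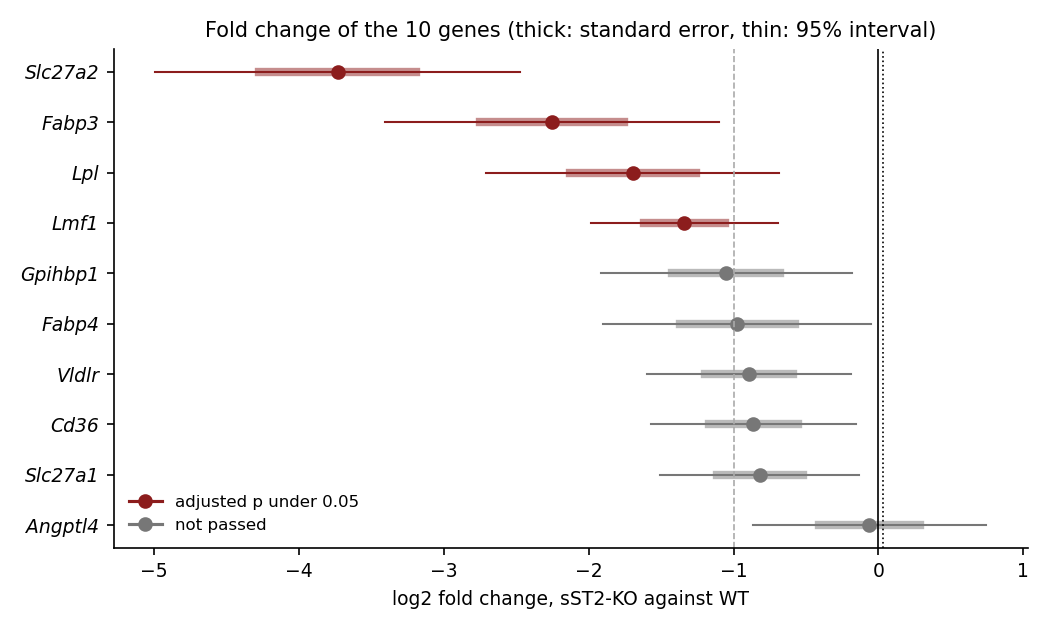
log2 fold change of each of the 10 genes in sST2-KO against WT BAT, with the standard error (thick bar) and the 95% interval (thin bar); red marks genes that passed at an adjusted p under 0.05, the dashed line a 2-fold decrease and the dotted line the median of all genes tested. Slc27a2, Fabp3, Lpl and Lmf1 lie left of the 2-fold line and passed, 5 genes lie near that line, and Angptl4 lies at -0.06.

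These calls depended on the tool and on single libraries. The tool of the study, DESeq2, passed 9 of the 10 genes, all but Angptl4. Of the 24404 genes to which DESeq2 gave a p, it passed 1846 as lower and 2072 as higher, against 1323 and 1524 of 14542 in edgeR. With each library left out in turn, all log2 fold changes except that of Angptl4 stayed negative, and 0 to 4 of the 10 genes passed, with 0 without WT replicate 3, 1 (Slc27a2) without WT replicate 2, and 3 or 4 without any other library. Calls among all genes dropped as well, to 22 lower and 36 higher without WT replicate 3. They were 483 lower and 393 higher without WT replicate 2. Lpl passed in 0 of the 6 fits with a library left out (adjusted p 0.0533 to 0.127), although its unadjusted p with all libraries was 0.00498. Fabp3 passed in 3, Lmf1 in 4 and Slc27a2 in 5 of the 6, and Vldlr passed without WT replicate 1 (adjusted p = 0.0489) and Slc27a1 without sST2-KO replicate 1 (adjusted p = 0.0334). Whether the counting used the strand is not given in the sources used here, and 7 of the 10 genes overlap a gene on the opposite strand in the GRCm39 annotation, among them Slc27a1 with Nxnl1 and Fabp3 with Zcchc17.

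Promoter sequences were read to show which known lipid-gene motifs stand near the starts of these genes. They are printed for the genes that passed and had an entry, and for Cd36, which did not pass. RefSeq's promoter table (GRCm38.p6) matched 6 of the 10 genes by symbol, with 9 promoters in all, and Lpl, Gpihbp1, Angptl4 and Fabp4 had no entry. The motif searched first was the binding sequence of PPAR and RXR dimers, a repeat of AGGTCA spaced by 1 base, on both strands and with up to 2 mismatches. The other 2 motifs, AAGGTCA of the estrogen-related receptors and TGACGT of CREB-type factors, were searched as exact matches and were chosen after the promoters were seen. AGGTCA lies within AAGGTCA, so those matches can overlap. The 250 bases upstream of the start are given 5′ to 3′ on the strand of the gene, with motif matches in capitals. They lie at chr2:126552774-126553023 (plus) for Slc27a2, chr4:130308488-130308737 (plus) for Fabp3, chr17:25578924-25579173 (plus) for Lmf1 and chr5:17835897-17836146 (minus) for Cd36.
Slc27a2: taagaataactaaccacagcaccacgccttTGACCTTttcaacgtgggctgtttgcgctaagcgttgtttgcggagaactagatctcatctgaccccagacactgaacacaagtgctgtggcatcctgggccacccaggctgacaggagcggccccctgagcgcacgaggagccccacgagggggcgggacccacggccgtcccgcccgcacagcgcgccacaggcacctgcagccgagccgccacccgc
Fabp3: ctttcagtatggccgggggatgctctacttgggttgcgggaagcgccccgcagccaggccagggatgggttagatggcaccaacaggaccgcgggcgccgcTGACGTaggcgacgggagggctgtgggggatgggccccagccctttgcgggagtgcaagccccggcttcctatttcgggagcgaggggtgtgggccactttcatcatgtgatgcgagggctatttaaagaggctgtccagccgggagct
Lmf1: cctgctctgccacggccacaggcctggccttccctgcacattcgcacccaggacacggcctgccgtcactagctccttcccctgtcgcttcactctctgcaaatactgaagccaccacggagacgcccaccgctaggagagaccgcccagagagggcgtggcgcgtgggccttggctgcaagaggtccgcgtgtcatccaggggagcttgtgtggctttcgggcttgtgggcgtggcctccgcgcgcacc
Cd36: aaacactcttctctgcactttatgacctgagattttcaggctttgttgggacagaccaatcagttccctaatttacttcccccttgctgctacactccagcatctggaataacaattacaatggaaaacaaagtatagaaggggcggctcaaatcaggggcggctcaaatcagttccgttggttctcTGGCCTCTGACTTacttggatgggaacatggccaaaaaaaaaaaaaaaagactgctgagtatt

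The Slc27a2 promoter held AAGGTCA on the opposite strand, printed as TGACCTT, from 220 bases upstream of the start. The Fabp3 promoter held TGACGT from 149 bases upstream, and the Cd36 promoter held the spaced repeat with 2 mismatches on the opposite strand from 63 bases upstream. In the Lmf1 promoter none of the 3 motifs was matched. The promoters of Slc27a1 and Vldlr, which did not pass and are not printed, held no match either. Every promoter with a match is thus among those printed. Each motif was matched in 1 of the 9 promoters of these genes. Among all 32544 promoters of the table, in windows that also hold the 50 bases after the start, AAGGTCA was matched in 4.71%, TGACGT in 7.55% and the spaced repeat in 3.87%. A match describes letters in these windows and shows no binding, and genes with and without a match both fell.

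Levels of different genes can be compared only per length, and were set side by side as normalized CPM per kilobase of the exons that any annotated transcript covers. In WT BAT the order was Fabp4, Lpl, Cd36, Angptl4, Fabp3, Gpihbp1, Slc27a2, Slc27a1, Vldlr and Lmf1, from 2119 ± 225 per kilobase for Fabp4 and 511 ± 133 for Lpl to 1.32 ± 0.40 for Lmf1 (SD, n = 3). The neighbors from Cd36 to Slc27a2 overlapped in their ranges, and the other neighbors did not. Both the levels and the order rest on the length used. Per kilobase of the canonical transcript, Lpl was at 1518 and Lmf1 at 18.1 in WT BAT, Fabp3 (1089) came next after Lpl, ahead of Cd36 (722), and Lmf1 came above Vldlr (16.5), with overlapping ranges in both pairs. In sST2-KO BAT, Angptl4 stood second at 168 ± 59.4 per kilobase and Lpl next at 158 ± 63.4, with overlapping ranges, although Angptl4 was above Lpl in each of the 3 libraries. Slc27a2 went from 109 ± 37.0 to 8.19 ± 4.66 per kilobase, and from above Slc27a1 in each WT library to below it in each sST2-KO library. With the length of the longest or of the canonical transcript, Lpl stayed second in sST2-KO BAT and Angptl4 came below Cd36. Within a library the ratio of Angptl4 to Lpl, which does not depend on length between groups, was 3.15-fold higher in sST2-KO mice, with log2 ratios of -3.41, -2.10 and -3.42 across the WT libraries and -1.37, -1.41 and -1.19 across the sST2-KO libraries. The groups did not overlap (exact two-sided permutation p = 0.1, adjusted p = 0.15).

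The medians of the adipocyte marker lists moved in the direction of these genes, and those of macrophage and muscle markers in the opposite direction. Of 12 brown adipocyte markers, 10 fell, and their summed level was 8695 to 16621 CPM in WT and 372 to 1974 CPM in sST2-KO libraries. Of 12 genes of all adipocytes, 1 (Adipoq) fell, the median log2 fold change was -0.76, and their summed level was 15691 to 23145 CPM in WT and 5944 to 12895 CPM in sST2-KO libraries. Endothelial markers had a median of 0.028, with 1 of 15 lower (Kdr), 1 higher (Emcn), and sums of 2265 to 2865 CPM in WT and 2064 to 3487 CPM in sST2-KO libraries. Skeletal muscle markers, of which 4 of 18 rose, and macrophage markers, of which 3 of 15 rose, had higher sums in sST2-KO than in WT mice, without overlap. The macrophage sum was 956 to 1320 CPM in WT and 1673 to 6788 CPM in sST2-KO libraries. Of 15 liver markers listed, 14 were in the count table, and 3 of the 4 tested passed as lower (Alb, Apoa2 and Cyp2e1). No marker of these lists was at 0 in all libraries. The part of these cell types in the changes of the 10 genes was not tested.

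**Figure D3:**
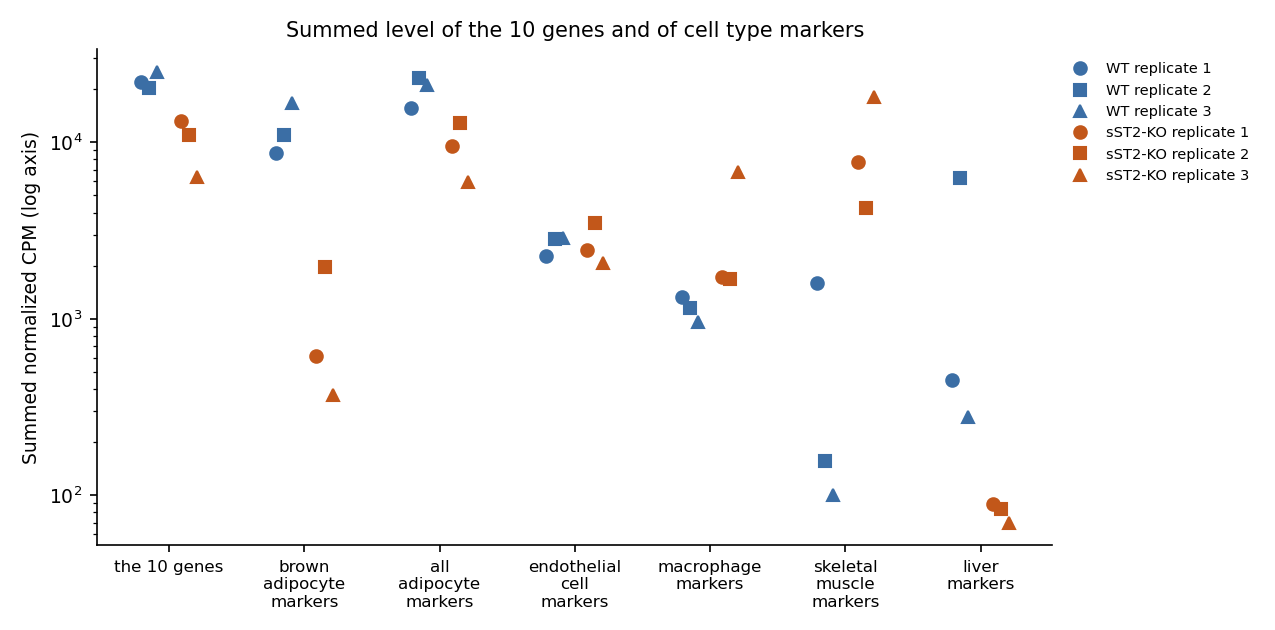
Summed normalized CPM (log axis) of the 10 genes and of each cell type marker list in the 3 WT (blue) and 3 sST2-KO (orange) libraries. The sum of the 10 genes is 20286 to 25080 CPM in WT and 6315 to 13131 CPM in sST2-KO libraries, brown adipocyte markers are further apart, endothelial markers overlap, and WT replicate 2 stands out in liver markers.

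Set against cell type markers, the direction of most of the 10 genes depended on the list. Gpihbp1 was lower relative to endothelial genes and Slc27a2 lower relative to either adipocyte list, while Lpl and Fabp3 were lower relative to the genes of all adipocytes and higher relative to the brown adipocyte markers. From the log2 CPM of each gene the mean log2 CPM of the list in the same library was subtracted, which gave log2 ratios for 12 comparisons in all, those between 2 of the genes included, none of which can pass a p of 0.05 with 3 against 3 libraries. Gpihbp1 over endothelial markers was 1.23, 1.67 and 1.67 across the WT libraries and 0.79, 0.31 and -0.26 across the sST2-KO libraries, so its level was lower relative to the endothelial genes in every sST2-KO library. Relative to the genes of all adipocytes, Slc27a2 differed by -3.36, Fabp3 by -1.87 and Lpl by -1.22 in log2 ratio. These 4 ratios, with those of Fabp4 (-0.51) and Cd36 (-0.36), did not overlap between the groups (exact two-sided permutation p = 0.1 and adjusted p = 0.15 each). For Fabp4 the groups almost touched, with a ratio to the genes of all adipocytes of 4.357 in WT replicate 1 and 4.346 in sST2-KO replicate 1. All 12 adipocyte genes count equally in this divisor, and 1 of them, Lep, went the other way. Its log2 fold change of 3.27 did not pass (adjusted p = 0.13), but it lowers the ratios to adipocyte genes in sST2-KO mice. The part of Lep in the small differences of Cd36 and Fabp4 was not tested. The ratios of Lmf1 (-0.77, p = 0.2), Angptl4 (0.43, p = 0.3), Slc27a1 (-0.35, p = 0.3) and Vldlr (-0.33, p = 0.6, all by the exact permutation test) overlapped. When the summed CPM of the adipocyte list was the divisor, which gives most weight to Pck1, Pnpla2 and Cfd, the differences of Vldlr, Cd36, Slc27a1 and Fabp4 turned positive, at 0.26, 0.24, 0.25 and 0.09, that of Lpl was -0.62 (exact permutation p = 0.2), that of Lmf1 was -0.18 (p = 0.6) and that of Angptl4 was 1.03 (p = 0.1). With the mean log2 CPM of the brown adipocyte markers as divisor, a choice made after the other ratios were seen, 8 of the 9 differences were positive. These markers had themselves fallen, with a median log2 fold change of -3.005. A gene that fell less than they did thus had to come out positive, and a gene that fell more had to come out negative. Lpl over these markers was 5.38, 4.35 and 4.90 across the WT libraries and 6.82, 5.38 and 6.29 across the sST2-KO libraries, a difference of 1.28 (exact permutation p = 0.2). Fabp3 differed by 0.64, Lmf1 by 1.74, Fabp4, Cd36, Slc27a1 and Vldlr by 2.00 to 2.17 and Angptl4 by 2.94, and Slc27a2 alone stayed negative at -0.86 (exact permutation p = 0.1 each). For Slc27a2 the groups almost touched, with 0.963 in WT replicate 2 and 0.947 in sST2-KO replicate 1.

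**Figure D4:**
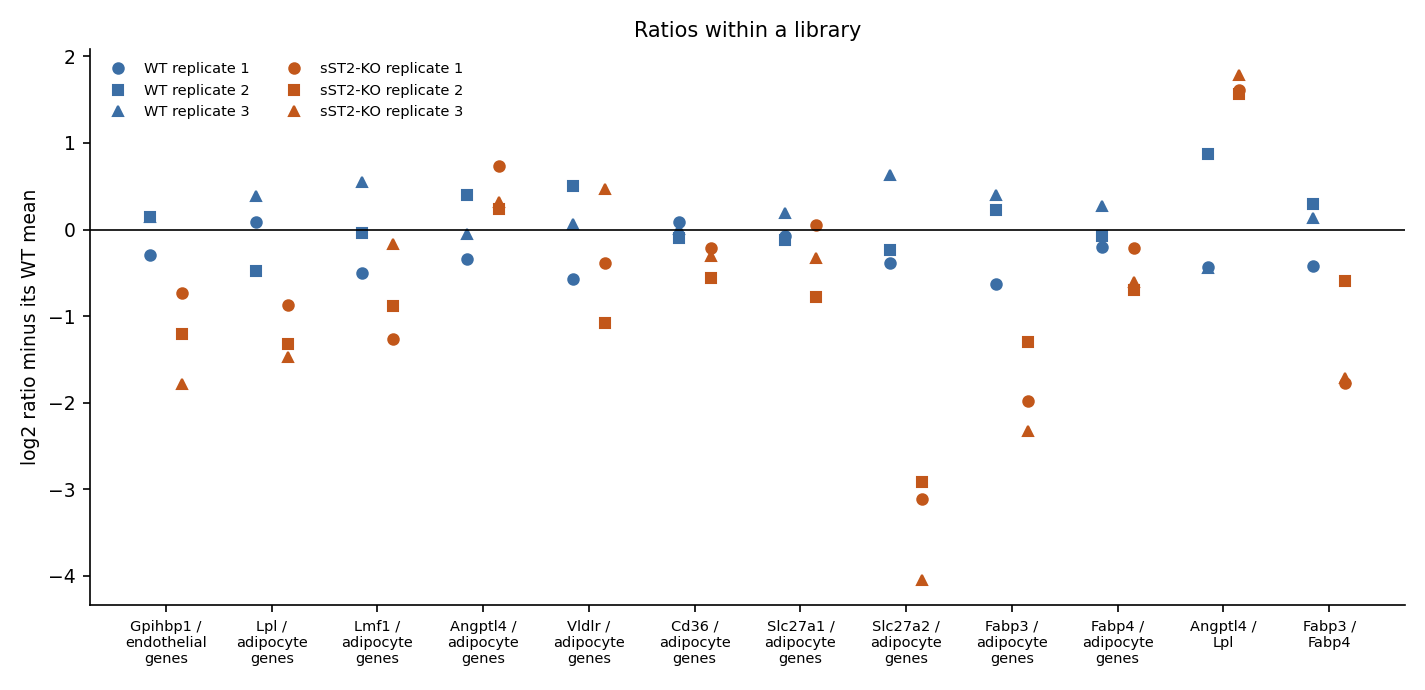
log2 ratio in each library of Gpihbp1 to endothelial genes, of the other genes to the genes of all adipocytes, or of a gene to another of the 10. Values are shown as the difference from the mean of the 3 WT libraries (blue, with sST2-KO in orange). Slc27a2, Fabp3 and Lpl relative to the genes of all adipocytes and Gpihbp1 relative to endothelial genes are lower in all sST2-KO libraries (relative to brown adipocyte markers, not drawn, Lpl and Fabp3 turn positive), the ratio of Angptl4 to Lpl is higher in all of them, and Vldlr is mixed.

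The other genes of the pathway were read from lists of 4 kinds. Of 19 further partners of intravascular lipolysis, 14 were tested and 4 fell in edgeR's test, with 0 that rose, also 0 at an unadjusted p under 0.05, and with a median log2 fold change of -0.34. Angptl8, an insulin-induced regulator of LPL, went from 13.66, 13.71 and 20.03 CPM across the WT libraries to 2.57, 3.08 and 1.18 CPM across the sST2-KO libraries (log2 fold change -2.79, standard error 0.39, adjusted p = 0.0133). Pcsk6, a proprotein convertase that can cleave LPL and its regulators, fell as well (log2 fold change -2.17, standard error 0.32, adjusted p = 0.0136). The other genes that fell were the lipoprotein components Apoc1 (-1.97) and Apoe (-1.56). Apoa4, Apoa5, Apoc3 and Lipc, which are liver genes, were below the filter and were read mainly in WT replicate 2. Of 15 lipoprotein receptor genes, 13 were tested, with 2 lower, 2 higher and a median of -0.027. Sort1, which encodes the sorting receptor sortilin, fell by 0.89 and Lrp6, a Wnt co-receptor, fell by 0.77 on the log2 scale, and neither passed when libraries were scaled by their totals. Lrp8, a receptor of apolipoprotein E, rose from 1.10 ± 0.338 to 4.37 ± 1.27 CPM (SD, n = 3 each, log2 fold change 1.98), and Sorl1, another sorting receptor, rose from 9.26 ± 1.93 to 24.4 ± 5.95 CPM (log2 fold change 1.40).

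Of 24 other genes of fatty acid transport, binding and activation, 17 were tested, 4 fell and 1 rose, and the median was -0.20. Mfsd2a, a transporter of lysophospholipids carrying long chain fatty acids, fell furthest of all genes in the 4 lists, from 64.4, 104 and 158 CPM across the WT libraries to 5.56, 10.4 and 1.77 CPM across the sST2-KO libraries (log2 fold change -4.21, standard error 0.63, adjusted p = 0.0136). Acsl1, the main acyl-CoA synthetase of adipocytes, had 1979, 2649 and 2878 CPM in WT and 357, 803 and 447 CPM across the sST2-KO libraries (log2 fold change -2.22, standard error 0.39, adjusted p = 0.0154). Its groups were far apart, with sST2-KO replicate 2 the highest of the lower group. The acyl-CoA binding protein gene Dbi (-1.43) and Slc27a4 (-1.01) also fell. Acsl6, an acyl-CoA synthetase found mostly in brain, muscle and testis, rose from only 9, 1 and 0 counts across the WT libraries to 81, 11 and 104 counts across the sST2-KO libraries. The part of muscle transcripts in this rise was not tested.

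Among 16 transcriptional regulators of the pathway, all tested, 4 fell and 1 rose, with a median log2 fold change of -0.66. Ppargc1a, the coactivator that cold induces in BAT, had 149, 251 and 171 CPM across the WT libraries and 20.4, 59.0 and 45.0 CPM across the sST2-KO libraries (log2 fold change -2.20, standard error 0.41, adjusted p = 0.0167). Esrra, a nuclear receptor that works with it, fell from 137 ± 30.7 to 39.8 ± 3.23 CPM (SD, n = 3 each), which is -1.78 on the log2 scale (standard error 0.21, adjusted p = 0.01). Of the 12 genes named by rule from the lists it was the only one that passed with each library left out in turn. Nr1h3, the liver X receptor alpha (-0.94), and Rxrb (-0.67) also fell. Pparg, the regulator of adipocyte genes and of Lpl, had 249.6, 342 and 299 CPM across the WT libraries and 223, 241 and 100.5 CPM across the sST2-KO libraries, without overlap but with an adjusted p of 0.21 (log2 fold change -0.66). Hif1a, the hypoxia-inducible factor, rose, with 69.3, 52.0 and 40.8 CPM in WT and 96.2, 162.5 and 311 CPM across the sST2-KO libraries (log2 fold change 1.81, adjusted p = 0.0292). Its highest value was in sST2-KO replicate 3, the library with the most macrophage and muscle transcripts. The part of these transcripts in the rise of Hif1a was not tested.

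**Figure D5:**
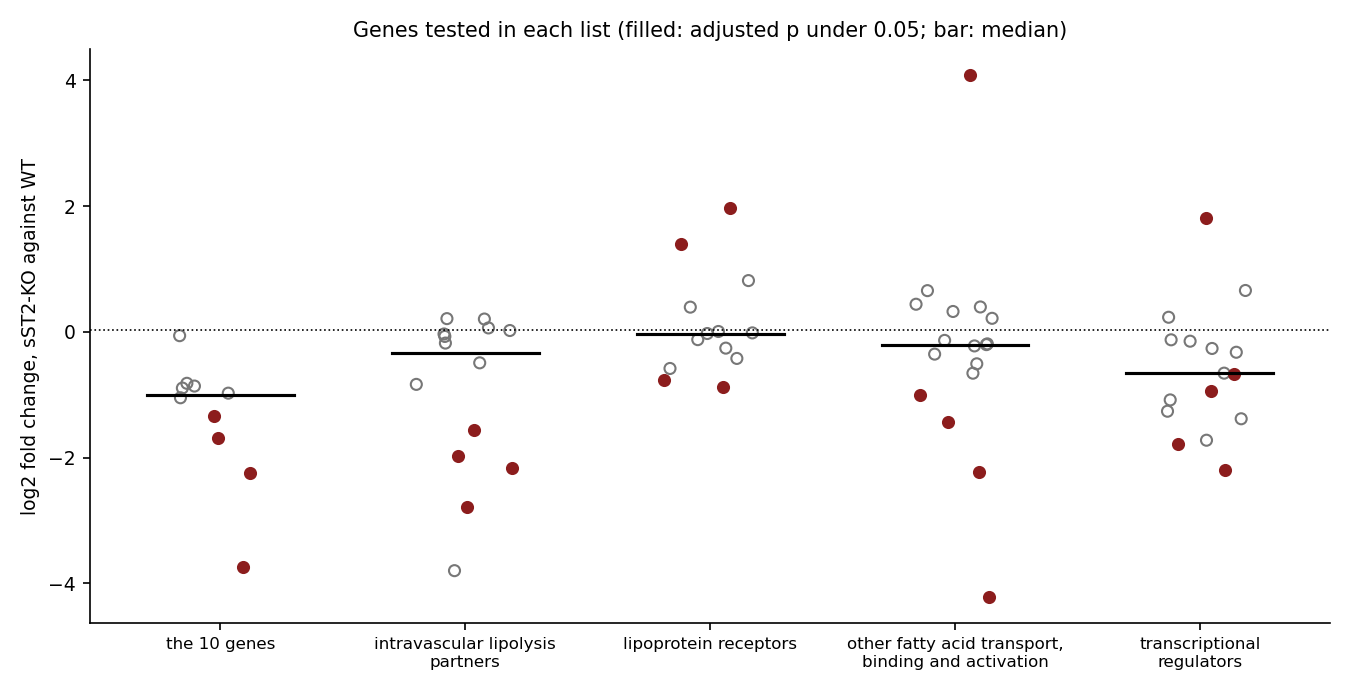
log2 fold change in sST2-KO against WT BAT of the genes tested in the set of 10 and in each of the 4 pathway lists, with filled red points for genes that passed at an adjusted p under 0.05, bars for the median of each list and a dotted line for the median of all genes tested. The medians run from -1.01 for the 10 genes to -0.027 for the lipoprotein receptors, and each list holds genes on both sides of the dotted line except the set of 10.

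Over the 6 libraries, the log2 CPM of the other genes of the set followed that of Lpl to different degrees. Pearson's r with Lpl was 0.97 for Cd36, Fabp4 and Slc27a2, 0.95 for Slc27a1, 0.90 for Fabp3, 0.89 for Gpihbp1, 0.78 for Lmf1, 0.51 for Vldlr and 0.31 for Angptl4. These 6 points fall into the 2 genotypes and share their library and its depth, so r is given as a description only. Among 11934 other genes whose mean log2 CPM reached 2, the 5 most like Lpl were Nadsyn1 (r = 0.999), an enzyme of NAD synthesis, Bckdhb (0.997), a subunit of the branched-chain ketoacid dehydrogenase, Trp53inp2 (0.996), which acts in autophagy, Arxes2 (0.995), an adipocyte gene, and Elovl6 (0.994), a fatty acid elongase. Elovl6 had 218, 123.5 and 327 CPM across the WT libraries and 38.9, 38.9 and 10.8 CPM across the sST2-KO libraries, so that WT replicate 2 was the lowest WT library and sST2-KO replicate 3 the lowest of all, as for Lpl. Since Lpl was lower in sST2-KO mice, the choice of these 5 genes fixed that they were lower too.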

How the data were processed

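RNA-seq was performed on BAT of 3 WT and 3 sST2-KO mice, and the sample labels gave the group and replicate of each library. The authors prepared poly-A-selected libraries, read 150 bp paired ends, aligned them with HISAT2 2.2.1 to mm39 after FastQC 0.12.1, and counted reads per gene with htseq-count. The deposited counts per gene symbol are not normalized, and the number of sample columns not used was 0. The version and strand setting of htseq-count are not given in the sources used here.

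Counts were analyzed with edgeR 4.0.16 in R 4.3.3. Genes were kept by filterByExpr, scaled by TMM, and compared by the quasi-likelihood test without a covariate over 14542 genes. Standard errors are the log2 fold change divided by the root of the F value. Log2 CPM used a prior count of 2. Ratios within a library were compared by exact two-sided permutation tests. Alternatives were DESeq2 1.42.0 (the tool of the study, which selects genes above 2-fold), RLE factors, library totals, no filter on low counts, a minimum of 10 counts per sample, robust quasi-likelihood estimation, a block for the replicate number, p without adjustment, a 1.5-fold minimum, other lengths and mismatch limits, and each library left out. The length of the canonical transcript, 2 promoter motifs and ratios to the brown adipocyte list were added after values were seen. The steps were tested on simulated counts.

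The 10 genes, the lists and the rule for named genes (in each list the 2 largest falls and the 2 largest rises that passed, and the 5 genes most like Lpl) were chosen with earlier results of these data known, and any other gene was named with its values in view. In the lists, 1 symbol (Cavin1, listed as Ptrf) was matched by an older name, and 1 (Tf) was not found. The values of 1 listed gene are not reported here, though the list counts include it. Chi-square per degree of freedom between libraries of a group ran from 40.1 to 114, and no library was a duplicate. Gene positions are from the GRCm39 annotation and promoters from RefSeq (GRCm38.p6).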

Additional observations from a re-analysis of the deposited data

How the results depend on the processing

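With each library left out in turn, 0 to 4 of the 10 genes passed as lower, 0 to 4 were also above 2-fold, and 0 passed as higher, while 22 to 1189 of all genes passed as lower and 36 to 1502 as higher. The lower calls in the lists ranged from 0 to 7 (lipolysis partners), 0 to 1 (receptors), 0 to 3 (other fatty acid genes) and 1 to 5 (regulators), and the higher calls from 0 to 2 among receptors and 0 to 1 in the last 2 lists. The log2 fold changes then lay between -1.96 and -1.41 for Lpl, -1.26 and -0.74 for Gpihbp1, -1.53 and -1.09 for Lmf1, -0.31 and 0.18 for Angptl4, -1.11 and -0.60 for Vldlr, -1.02 and -0.68 for Cd36, -1.15 and -0.62 for Slc27a1, -4.15 and -3.34 for Slc27a2, -2.84 and -1.90 for Fabp3, and -1.22 and -0.74 for Fabp4. The ratio of Vldlr to adipocyte genes lay between -0.73 and 0.040. DESeq2 and unadjusted p values both passed 9 of the 10 genes as lower, and with DESeq2 the log2 fold changes of those that edgeR did not pass were -1.07 (Gpihbp1), -0.92 (Vldlr), -0.88 (Cd36), -0.84 (Slc27a1) and -0.998 (Fabp4), against -1.05, -0.89, -0.86, -0.82 and -0.98 in edgeR. Of the 24404 genes to which it gave a p, DESeq2 passed 1846 as lower and 2072 as higher. Unadjusted p values passed 2423 lower and 2846 higher genes, 7 regulators as lower and 2 of the other fatty acid genes as higher. Without a filter 7 lipolysis partners were lower, with library totals 0 receptors were lower, and with at least 10 counts in every sample 1 receptor and 0 of the other fatty acid genes were higher, since Lrp8 and Acsl6 were then not tested. Angptl4 turned to 0.20 with library totals. With the summed CPM of the adipocyte list, the ratios of Vldlr (0.26), Cd36 (0.24), Slc27a1 (0.25) and Fabp4 (0.094) turned positive. With the brown adipocyte list as divisor, chosen after seeing the data, the ratios of Lpl (1.28), Lmf1 (1.74), Vldlr (2.17), Cd36 (2.14), Slc27a1 (2.15), Fabp3 (0.64) and Fabp4 (2.00) turned positive. Allowing 1 mismatch gave 0 matches of the spaced repeat in the 9 promoters, and allowing 3 mismatches gave 2. The causes of these differences were not tested, except where fewer genes were tested.

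The sample labels do not say whether the replicate numbers pair the samples. The correlations of same-numbered deviations from the group means were -0.06, 0.21 and -0.31. The deviations of the 3 libraries of a group sum to 0, so these correlations cannot decide it. With the replicate number as a block, 0 genes of the whole table passed as lower or higher by edgeR, so 0 of the 10 genes and 0 genes of each list passed, with 7 of the 10 genes and 4623 of all genes at an unadjusted p under 0.05. The blocked log2 fold changes were -1.74 for Lpl, -1.31 for Lmf1, -3.85 for Slc27a2 and -2.38 for Fabp3. No other setting changed the sign of a log2 fold change of the 10 genes, apart from Angptl4 as given above. Of the 10 genes, those lower by 1.76- to 2.07-fold (Slc27a1, Cd36, Vldlr, Fabp4 and Gpihbp1) did not pass in edgeR with 3 libraries a group.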
